A study of Homo sapiens with 12 samples.

Results

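The genes described here are 10 members of the JAK-STAT pathway with a PIM kinase, picked by name: JAK1, JAK2 and TYK2 (Janus kinases), STAT3, STAT5A, STAT5B and STAT6 (transcription factors), SOCS1 and SOCS3 (feedback inhibitors) and PIM1 (a serine/threonine kinase). Each had 1 row in both deposited tables, so they are 10 of 25369 rows. All 10 passed a filter of a mean FPKM (fragments per kilobase of transcript, relative to all mapped fragments of the library) of at least 1 in TMD8, and 9 passed it in OCI-Ly7, where SOCS3 was left out of the tests for its low level. RNA was sequenced from 2 human diffuse large B-cell lymphoma (DLBCL) lines, TMD8, labelled as ABC (activated B-cell-like), and OCI-Ly7, labelled as GCB (germinal centre B-cell-like). Cells of each line carried a guide RNA (sgRNA) against PRMT5, an arginine methyltransferase, whose expression is switched on by doxycycline, and were harvested after 0, 3 or 6 days with 20 ng/ml of the drug. There were 2 libraries per line and day, hence 6 groups and 12 libraries. The guide is present in every group and no library had doxycycline without it or a control guide, so the guide, the drug and the days in culture cannot be told apart. The days follow the titles and sample characteristics, since the treatment text in the labels gives different ones. Nothing in the labels says whether the 2 libraries of a group came from separate cultures, or whether each line was 1 clone.

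Cytokine receptors such as those for IL-6, IL-10, IL-4 and IL-21 have no kinase of their own and rely on JAK1, JAK2, JAK3 or TYK2 bound to their tails. The activated kinases phosphorylate STAT proteins, which pair up, enter the nucleus and bind DNA at palindromes of the form TTCNNNGAA or, for STAT6 in particular, TTCNNNNGAA. SOCS1, SOCS3, CISH and PIM1 are classic target genes, and the SOCS proteins damp the signal in turn. In ABC DLBCL, autocrine IL-6 and IL-10 are known to keep STAT3 active, whereas PIM kinases promote survival and protein synthesis. Transcript levels do not measure phosphorylation, so pathway activity was not measured.

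STAT5A and STAT5B, whose ratio changed in the results below, are close paralogs that lie next to each other on chromosome 17, with STAT3 as the next coding gene on the other side of STAT5A. Their RefSeq promoter windows (GRCh38.p14, 250 bases up to the transcription start, printed 5′ to 3′ on the strand of the gene) are shown with that of CISH, a known STAT5 target, for contrast. Capitals mark matches to TTCNNNGAA or TTCNNNNGAA, which read the same on both strands and were each searched from every base, so that matches could overlap. The STAT5A window belongs to the outermost of its 3 starts, at chr17:42287189-42287438 (plus strand). The STAT5B window is at chr17:42276392-42276641 (minus strand) and the CISH window at chr3:50611775-50612024 (minus strand).
STAT5A: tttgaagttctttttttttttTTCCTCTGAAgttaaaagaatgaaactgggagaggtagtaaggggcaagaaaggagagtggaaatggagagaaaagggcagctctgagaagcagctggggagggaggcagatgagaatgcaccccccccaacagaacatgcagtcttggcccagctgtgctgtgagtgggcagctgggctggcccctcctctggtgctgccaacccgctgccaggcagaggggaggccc
STAT5B: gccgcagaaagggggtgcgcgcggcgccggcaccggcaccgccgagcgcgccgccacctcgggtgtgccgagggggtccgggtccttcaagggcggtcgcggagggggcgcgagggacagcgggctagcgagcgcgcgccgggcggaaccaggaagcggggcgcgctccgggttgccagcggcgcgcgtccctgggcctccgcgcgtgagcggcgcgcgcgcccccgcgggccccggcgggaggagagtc
CISH: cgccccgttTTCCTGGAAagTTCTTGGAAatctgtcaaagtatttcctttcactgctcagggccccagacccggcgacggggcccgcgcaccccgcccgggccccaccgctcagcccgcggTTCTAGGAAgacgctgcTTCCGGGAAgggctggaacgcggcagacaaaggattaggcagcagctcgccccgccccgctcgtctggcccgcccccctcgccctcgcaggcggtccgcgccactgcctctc
The STAT5A window held 1 TTCNNNNGAA match, TTCCTCTGAA, whose first base lies 229 bases before the start. Neither motif was found in the windows of the other STAT5A starts or in the STAT5B window. The CISH window held 4 TTCNNNGAA matches. All 10 genes had at least 1 RefSeq window. Over their 18 windows TTCNNNGAA was found in 0, against 6.57% of 35116 windows of all genes, and TTCNNNNGAA in 1, against 5.38%. These letters in these windows describe the sequence and say nothing of binding.

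FPKM summed to 397477 to 467844 in a library, and 10092 to 11021 genes reached 1 FPKM. The number of reads is not given in the sources used here. Relative to the first day 0 library of each line, depth read from the smallest values was 1.17 in the other TMD8 day 0 library and 0.54 to 0.74 in the treated TMD8 libraries, 1.29 in the other OCI-Ly7 day 0 library and 0.77 to 0.91 in the treated ones. In TMD8 the median gene changed by -0.27 on day 3 and -0.31 on day 6 (log2), and in OCI-Ly7 by -0.12 and -0.13. The row of the ribosomal precursor RNA45S5 moved with this shift: it stood at 5222 and 7950.0 FPKM in TMD8 on day 0 and between 17581 and 20452 later, and at 10374 and 11163 FPKM in OCI-Ly7 on day 0 and between 14278 and 20542 later. Its part in the shift was not tested. The changes that the results turn on are therefore given on FPKM as deposited and again after median-ratio scaling. In it a library is divided by its typical ratio (the median over genes) to the geometric mean of the libraries of its line. For comparisons between the lines the geometric mean was that of all 12 libraries. Within a line this scaling removes the shift. Scaled FPKM of single libraries are those scaled within the line. Statements that libraries lie above or below others refer to FPKM as deposited unless said otherwise. The share of all genes that separate in such a way was not counted. In bulk RNA, fewer cells of a kind and less RNA per cell cannot be told apart. The targeted gene PRMT5 stood at 64.8 and 60.5 FPKM in TMD8 on day 0, at 41.3 and 42.0 on day 3 and at 49.6 and 54.7 on day 6. In OCI-Ly7 it stood at 37.9 and 46.9, then 29.3 and 32.1, then 21.0 and 19.2. In limma PRMT5 in TMD8 changed by -0.58 on day 3 (adjusted p = 0.0212) and -0.26 on day 6 (adjusted p = 0.0262) as deposited, but by -0.28 (adjusted p = 0.147) and 0.10 (adjusted p = 0.201) after scaling, so the day 6 direction turned. In OCI-Ly7 its day 3 change of -0.45 did not pass (adjusted p = 0.618), and the day 6 change was -1.04 (adjusted p = 0.0345), and -0.89 (adjusted p = 0.0284) after scaling. The day 6 change of PRMT5 itself thus differed between the lines in limma. OCI-Ly7 minus TMD8, the difference was -0.77 (adjusted p = 0.0099), and -0.94 (adjusted p = 0.0039) after scaling. The defining T cell genes CD3D and CD3E and the myeloid gene LYZ were at 0 in every library, and the 9 T and NK cell markers summed to at most 3.01 FPKM. The B cell gene CD22 reached 18.7 FPKM or more in all 12 libraries. The 8 myeloid markers summed to 39.7 to 67.0 FPKM in TMD8, nearly all of it CD68, and to 1.26 to 1.79 in OCI-Ly7. Of 10 genes listed for the activated subtype, 6 were lower and 2 higher in OCI-Ly7 on day 0, and of 9 listed for the germinal centre subtype 4 were higher and 5 lower, so the second list did not separate the lines by their labels. IRF4, CD44 and CCND2 (activated) were higher in TMD8, BCL6, MYBL1 and STAP1 (germinal centre) were higher in OCI-Ly7, and MME (germinal centre) was near 0 in TMD8 and at 6.72 to 10.8 FPKM in OCI-Ly7, but LMO2 and SERPINA9, also listed as germinal centre genes, were higher in TMD8, and IL16 and ETV6, listed for the activated subtype, were higher in OCI-Ly7.

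Before induction 7 of the 10 genes were lower in OCI-Ly7 than in TMD8 and 0 were higher, a share with any difference close to that of all genes (69.6%). STAT3, which IL-6 and IL-10 receptors activate, stood at 91.8 and 84.9 FPKM in TMD8 and at 6.53 and 6.95 in OCI-Ly7. SOCS3, the feedback inhibitor of the IL-6 receptor, stood at 39.3 and 33.6 FPKM in TMD8 and at 0.36 and 0.25 in OCI-Ly7. JAK2 stood at 12.03 and 11.5 FPKM in TMD8 and at 1.93 and 1.84 in OCI-Ly7. STAT5A stood at 4.06 and 4.08 FPKM in TMD8 and at 0.67 and 0.65 in OCI-Ly7. For none of these 4 did the lines overlap, on day 0 or at any later day. How many of all genes separate the lines in this way was not counted, so it is not shown to be particular to these 4. On log2(FPKM + 1), OCI-Ly7 minus TMD8, the differences were -3.53 (SE 0.10) for STAT3, -4.84 (SE 0.10) for SOCS3, -2.15 (SE 0.11) for JAK2 and -1.61 (SE 0.10) for STAT5A. Their adjusted p in limma over 11144 genes was 8.46e-09, 1.79e-09, 3.39e-07 and 9.75e-07. SOCS3 and STAT5A were below 1 FPKM in OCI-Ly7 on day 0 and reached the filter of this fit through libraries where they are high. For these genes the p-values therefore add nothing to the levels given.

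JAK1 (-0.68, adjusted p = 0.000259), STAT6 (-0.72, adjusted p = 0.000703) and STAT5B (-0.24, adjusted p = 0.0434) were also lower in OCI-Ly7 in limma. The 7 that passed were the same in number on either scale, beside 69.6% of all genes that passed the test in either direction (33.9% lower), and 72.3% (35.5% lower) after scaling. TYK2 differed by 0.02 (95% interval -0.30 to 0.33), SOCS1 by 0.38 (adjusted p = 0.0799) and PIM1 by 0.48 (adjusted p = 0.48). The STAT5B call was lost with an equal sum per library (-0.21, adjusted p = 0.0698), and when any of 9 of the 12 libraries was left out (for example -0.16, adjusted p = 0.245, without OCI-Ly7 day 0 replicate 1), whereas those of STAT3, SOCS3, JAK2, JAK1, STAT5A and STAT6 stayed below the threshold in each such fit. The cytokine IL10 was at 46.6 and 45.9 FPKM in TMD8 and at 0 and 0.071 in OCI-Ly7 on day 0, and IL21R, a receptor that signals through JAK1 and STAT3, at 48.6 and 45.4 against 5.73 and 6.80.

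**Figure D1:**
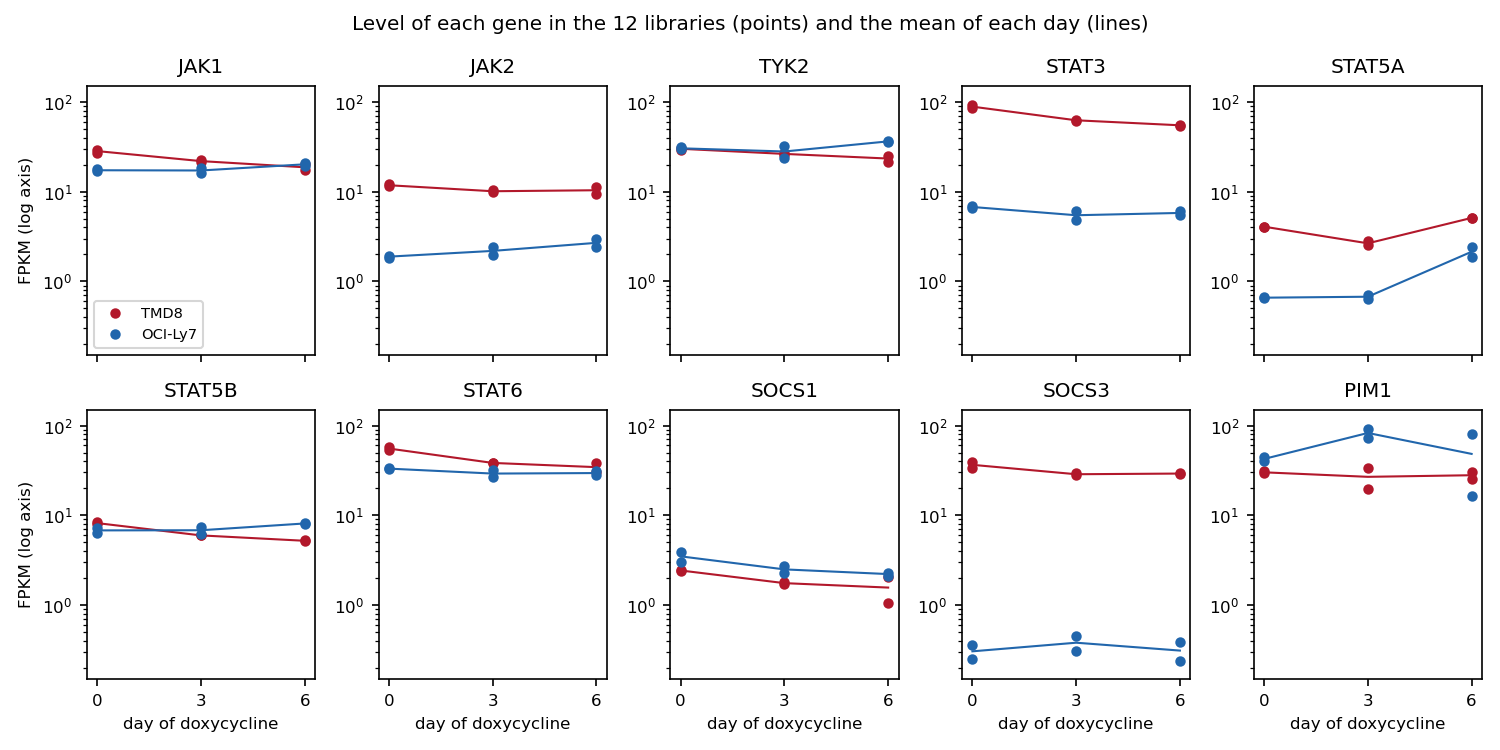
FPKM on a logarithmic axis of the 10 genes in each of the 12 libraries, by day of doxycycline, with TMD8 in red and OCI-Ly7 in blue and lines through the means of each day. STAT3, SOCS3, JAK2 and STAT5A separate the lines at every day, and the pair of OCI-Ly7 day 6 libraries lies far apart for PIM1.

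Among the Janus kinases, JAK1 fell in TMD8 on FPKM as deposited. JAK1 serves most of the cytokine receptors named above. It stood at 29.3 and 27.2 FPKM on day 0, at 21.2 and 22.5 on day 3 and at 17.2 and 20.1 on day 6. Each treated library was below both untreated ones as deposited. After scaling, day 3 replicate 2 (24.1) lay between the untreated ones (24.4 and 23.9). The day 6 change was -0.58 (SE 0.093, adjusted p = 0.00497 in limma over 10456 genes) and -0.23 after scaling (adjusted p = 0.0551). In OCI-Ly7 JAK1 stood at 17.6 and 16.9 FPKM on day 0, at 18.3 and 16.1 on day 3 and at 19.3 and 21.0 on day 6. There both day 6 libraries were above the other 4, by 0.21 (adjusted p = 0.225) as deposited and 0.35 (adjusted p = 0.0487) after scaling. The scaled call was lost whichever library was left out (0.27 to 0.44). The difference of the 2 day 6 changes, OCI-Ly7 minus TMD8, was 0.78 (SE 0.14, adjusted p = 0.00705) and 0.62 after scaling (adjusted p = 0.00502).

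JAK2, which serves the interferon gamma and IL-6 family receptors, stood in TMD8 at 12.03 and 11.5 FPKM on day 0, 10.4 and 9.83 on day 3 and 9.43 and 11.3 on day 6. The day 6 change of -0.17 did not pass (adjusted p = 0.176) and was 0.16 after scaling (adjusted p = 0.131). In OCI-Ly7 JAK2 stood at 1.93 and 1.84 FPKM on day 0, 2.39 and 1.98 on day 3 and 2.95 and 2.43 on day 6, with every treated library above the untreated ones. The day 6 change was 0.35 (adjusted p = 0.125), and 0.45 (adjusted p = 0.0477) after scaling, a call that was again lost whichever library was left out (0.37 to 0.54). The difference between the lines was 0.52 (adjusted p = 0.0417), and 0.32 (adjusted p = 0.0592) after scaling. It was also lost without either TMD8 day 0 library (0.49 and 0.55), either TMD8 day 3 library (0.52 for each), TMD8 day 6 replicate 1 (0.41), either OCI-Ly7 day 0 library (0.55 and 0.50) or OCI-Ly7 day 6 replicate 1 (0.42), with adjusted p from 0.0623 to 0.127.

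TYK2, the kinase of the interferon alpha, IL-10 and IL-12 receptors, stood in TMD8 at 30.6 and 29.3 FPKM on day 0, 25.8 and 26.8 on day 3 and 21.5 and 25.2 on day 6. It fell by 0.35 on day 6 as deposited (adjusted p = 0.0192), which is close to the median of all genes, with a change after scaling close to 0 (95% interval -0.16 to 0.16). The deposited-scale call was lost without TMD8 day 0 replicate 1 (-0.32), day 0 replicate 2 (-0.38) or day 6 replicate 1 (-0.24). In OCI-Ly7 TYK2 stood at 31.0 and 29.7 FPKM, then 32.6 and 23.4, then 35.9 and 36.6. The day 6 libraries were the highest of the line, by 0.25 (adjusted p = 0.325) and by 0.40 after scaling (adjusted p = 0.074).

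STAT3, the main STAT of the IL-6 and IL-10 response, fell in TMD8 on both scales. It stood at 91.8 and 84.9 FPKM on day 0, at 63.3 and 61.3 on day 3 and at 54.3 and 55.2 on day 6, and the 3 days did not overlap. The day 6 change was -0.68 (SE 0.064, adjusted p = 0.00183) as deposited and -0.32 (SE 0.054, adjusted p = 0.0145) after scaling, from a mean of 88.3 ± 4.9 to 54.8 ± 0.66 FPKM (SD, n = 2, p by limma). The scaled call was lost without TMD8 day 0 replicate 1 (-0.31, adjusted p = 0.0957) or replicate 2 (-0.34, adjusted p = 0.0744). In OCI-Ly7 STAT3 stood at 6.53 and 6.95 FPKM, then 6.06 and 4.85, then 5.47 and 6.10. All 4 treated libraries were below the untreated ones there as deposited. After scaling, day 6 replicate 2 (6.47) was above day 0 replicate 1 (6.13). The day 6 change of -0.19 did not pass (adjusted p = 0.333), nor did that of -0.06 after scaling (adjusted p = 0.704). The difference between the lines was 0.49 (adjusted p = 0.0358), and 0.30 (adjusted p = 0.0594) after scaling. It was lost when any of 9 libraries was left out: those of TMD8 at each day (0.43 to 0.54), those of OCI-Ly7 on day 0 (0.45 and 0.53) and OCI-Ly7 day 6 replicate 2 (0.42).

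STAT6, the IL-4 and IL-13 responder, was lower in TMD8 too. It stood at 58.1 and 52.7 FPKM on day 0, at 38.3 in both day 3 libraries and at 30.4 and 38.3 on day 6. It fell by 0.68 (SE 0.12, adjusted p = 0.00558), and by 0.32 after scaling (adjusted p = 0.0388). The scaled call remained only without TMD8 day 6 replicate 2 (-0.43, adjusted p = 0.0225) and was lost without any of the other 5 libraries (-0.36 to -0.21). In OCI-Ly7 STAT6 stood at 33.2 and 32.9 FPKM, then 31.8 and 26.5, then 28.0 and 31.1, a day 6 change of -0.16 (adjusted p = 0.386), and -0.01 after scaling (adjusted p = 0.937). The difference between the lines, 0.52, did not pass (adjusted p = 0.0587), nor did the scaled one of 0.35 (adjusted p = 0.0702).

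The STAT5 proteins serve the IL-2 family, prolactin and growth hormone receptors. STAT5B, the more abundant of the 2 in all 12 libraries, stood in TMD8 at 8.33 and 8.05 FPKM on day 0, at 5.97 and 5.98 on day 3 and at 5.15 and 5.26 on day 6, and the 3 days did not overlap. It fell by 0.57 on day 6 (SE 0.076, adjusted p = 0.00325), and by 0.25 after scaling (adjusted p = 0.0352). In OCI-Ly7 STAT5B stood at 6.36 and 7.23 FPKM, then 7.41 and 6.22, then 8.08 and 8.14. There the day 6 libraries were the highest, by 0.23 (adjusted p = 0.226) and by 0.36 after scaling (adjusted p = 0.051). The difference between the lines was 0.79 (SE 0.13, adjusted p = 0.00568), and 0.65 after scaling (adjusted p = 0.00256). The scaled TMD8 call was lost whichever library was left out (-0.28 to -0.22, adjusted p from 0.0511 to 0.175).

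STAT5A was higher on day 6 than on day 0 in both lines, and no other member passed the test upward in TMD8. In OCI-Ly7 it reached the filter only through its day 6 libraries, so its call there supports nothing further. In TMD8 it stood at 4.06 and 4.08 FPKM on day 0, at 2.78 and 2.53 on day 3 and at 5.12 and 5.07 on day 6. In OCI-Ly7 it stood at 0.67 and 0.65 FPKM on day 0, at 0.64 and 0.71 on day 3 and at 2.43 and 1.85 on day 6. In either line both day 6 libraries were above the other 4. Day 6 against day 0 gave 0.27 in TMD8 (SE 0.086, adjusted p = 0.0395) and 0.91 in OCI-Ly7 (SE 0.14, adjusted p = 0.0345). After scaling these were 0.56 (adjusted p = 0.00956) and 0.99 (adjusted p = 0.0269).

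In TMD8 STAT5A was lower on day 3 than on day 0 as deposited (-0.47, adjusted p = 0.0213) and not past the threshold after scaling (-0.24, adjusted p = 0.312). Between day 3 and day 6 it rose by 0.74 in TMD8 (adjusted p = 0.0163), and by 0.80 after scaling (adjusted p = 0.0119), and it was the 1 member of 10 that passed there, beside 7.84% of all genes (3.38% higher), and 11.7% after scaling (6.56% higher). In OCI-Ly7 that step was 0.90 (adjusted p = 0.087), and 0.92 (adjusted p = 0.0356) after scaling, beside 0.218% and 8.75% of all genes (4.23% higher after scaling). There STAT5A reached the filter only through its day 6 libraries, so the scaled call for this step supports nothing further. The day 6 change was larger in OCI-Ly7 than in TMD8 by 0.65 (SE 0.14, adjusted p = 0.0132), and by 0.44 (adjusted p = 0.0361) after scaling.

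Most of the STAT5A calls were lost in fits with a library left out, which have fewer libraries, while the change itself moved little. In TMD8 the day 6 call on FPKM as deposited was lost whichever of the 6 libraries was left out (0.26 to 0.27, adjusted p from 0.0583 to 0.170), and after scaling it was lost without day 0 replicate 1 (0.52) or replicate 2 (0.59). The step from day 3 to day 6 was lost without day 3 replicate 1 (0.79, adjusted p = 0.0856) or replicate 2 (0.69, adjusted p = 0.0906). In OCI-Ly7 the day 6 call was lost without day 0 replicate 1 (0.92), day 0 replicate 2 (0.91) or day 6 replicate 2 (1.05), and after scaling in all 5 fits that kept the gene (0.97 to 1.11). STAT5A reached the filter in OCI-Ly7 through its day 6 libraries, since it was below 1 FPKM in the other 4; without day 6 replicate 1 it was not tested, and with no filter the adjusted p was 0.0533. Because the gene is low in OCI-Ly7, the added 1 FPKM holds its changes down: with a pseudocount of 0.1 the day 6 change there was 1.55, the difference of the day 6 changes 1.23 and the day 0 difference between the lines -2.46, each on the same side of the threshold.

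The ratio of STAT5A to STAT5B within a library does not depend on scaling between libraries. It was 0.487 and 0.507 in TMD8 on day 0, 0.466 and 0.423 on day 3 and 0.995 and 0.965 on day 6. In OCI-Ly7 it was 0.105 and 0.0898, then 0.0868 and 0.114, then 0.301 and 0.227. At day 6 the mean ratio was 1.97 times that of day 0 in TMD8 and 2.69 times in OCI-Ly7, with no overlap between day 6 and the other days. An exact two-sided permutation test gave p = 0.333 in each line, the smallest that 2 against 2 libraries allow. Of the 50-base windows of STAT5A transcripts 8.61% also occur in STAT5B (507 of 5889), so reads from these windows could be assigned to either gene.

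**Figure D2:**
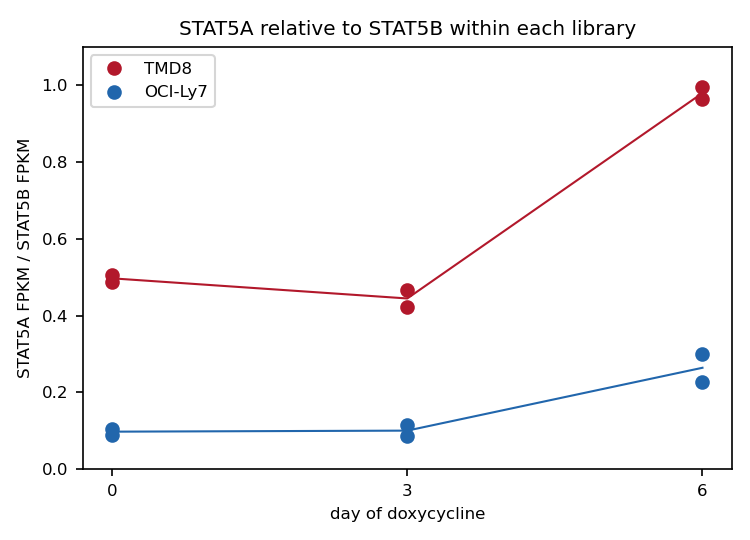
Ratio of STAT5A to STAT5B FPKM in each library by day of doxycycline, with a line through the means of each pair of libraries. In TMD8 (red) the ratio goes from 0.487 and 0.507 on day 0 to 0.995 and 0.965 on day 6, and in OCI-Ly7 (blue) from 0.105 and 0.0898 to 0.301 and 0.227.

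Of the feedback inhibitors, SOCS3 stood in TMD8 at 39.3 and 33.6 FPKM on day 0, 29.4 and 27.9 on day 3 and 28.99 and 29.3 on day 6. All 4 treated libraries were below the untreated ones as deposited. After scaling, day 6 replicate 1 (33.2) was above both untreated libraries (32.8 and 29.6). The day 6 change was -0.31 as deposited (adjusted p = 0.0270), the same as the median of all genes, and 0.04 after scaling (adjusted p = 0.660), so its direction flipped. The call was lost without day 0 replicate 1 (-0.20), day 6 replicate 1 (-0.30) or day 6 replicate 2 (-0.32). In OCI-Ly7 SOCS3 ranged from 0.24 to 0.45 FPKM, with overlapping days.

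SOCS1, which binds and blocks the Janus kinases directly, was low in both lines. In TMD8 it stood at 2.46 and 2.40 FPKM, then 1.72 and 1.79, then 2.07 and 1.07, and in OCI-Ly7 at 3.93 and 3.05, then 2.28 and 2.72, then 2.13 and 2.30. In either line all 4 treated libraries were below both untreated ones as deposited, but not after scaling. Scaled, TMD8 day 6 replicate 1 (2.37) was above both untreated TMD8 libraries (2.05 and 2.11). OCI-Ly7 day 3 replicate 2 (2.95) was above OCI-Ly7 day 0 replicate 2 (2.84). The day 6 changes of -0.45 in TMD8 (adjusted p = 0.0837) and -0.47 in OCI-Ly7 (adjusted p = 0.0789) did not pass, nor did the scaled ones of -0.20 and -0.36. Without TMD8 day 6 replicate 1 the TMD8 change was -0.73 (adjusted p = 0.00944).

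PIM1 passed no test in any comparison. In TMD8 it stood at 30.9 and 29.3 FPKM on day 0, 33.9 and 19.7 on day 3 and 25.4 and 30.5 on day 6. In OCI-Ly7 it stood at 40.2 and 44.7 FPKM on day 0, at 92.1 and 73.1 on day 3 and at 80.3 and 16.3 on day 6. Of the 4 treated OCI-Ly7 libraries, day 6 replicate 2 was below both untreated ones and the other three were above them. The pair on day 6 lay 2.23 apart on the log2 scale, and 68 of 11016 genes (0.617%) lay as far apart or farther. The day 3 change in OCI-Ly7 was 0.94 (95% interval -0.74 to 2.61, adjusted p = 0.626), and the day 6 change -0.21 with all libraries and 0.91 without day 6 replicate 2. After scaling the day 3 change was 1.06 (adjusted p = 0.856) and the day 6 change -0.06 (adjusted p = 0.957). A change of several fold in either direction on day 6 was therefore not distinguishable from no change.

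Counted over the members, day 6 on FPKM as deposited gave 1 of 10 higher and 6 lower in TMD8, beside 55.6% of all genes that passed in either direction (3.89% higher and 51.7% lower). After scaling it gave 1 higher (STAT5A) and 3 lower (STAT3, STAT5B and STAT6), beside 28.9% of all genes (15.4% higher and 13.5% lower). The median change of the 10 was -0.40 as deposited, against -0.31 over all genes, and -0.10 after scaling. At day 3 the TMD8 count was 6 lower (JAK1, STAT3, STAT5A, STAT5B, STAT6 and SOCS3), beside 43.0% of all genes (41.5% lower), and 0 after scaling, beside 0.220%. On FPKM as deposited these 6 changed by -0.52 to -0.33, and their count fell to 0 without any of the 4 libraries of days 0 and 3. At an unadjusted p under 0.05 on day 3, 6 of the 10 passed as deposited, beside 6138 of 10456 genes, a share near that of all genes. After scaling 3 passed, beside 1321 genes.

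In OCI-Ly7 day 3 gave 0 of 9 in limma on either scale, beside 0.145% of all genes as deposited and 0.118% after scaling. Of the 9, 1 and 0 had an unadjusted p under 0.05, beside 755 and 543 of 11016 genes. Day 6 gave 1 of 9 (STAT5A, higher), beside 11.4% of all genes (1.98% higher), and 3 of 9 (STAT5A, JAK1 and JAK2, all higher) after scaling, beside 14.8% (6.71% higher). STAT5A is in these counts only because its day 6 libraries brought it past the filter. The median day 6 change of the 9 was 0.21, against -0.13 over all genes. The difference between the lines passed for 5 of 10, all toward higher values in OCI-Ly7 (JAK1, JAK2, STAT3, STAT5A and STAT5B), beside 25.4% of all genes (19.5% in that direction). After scaling it passed for 4 (JAK1, TYK2, STAT5A and STAT5B), beside 32.3% (16.9% in that direction). For the difference of the day 3 changes 0 of 10 passed in limma on either scale, beside 0.0987% of all genes as deposited and 0.117% after scaling. At an unadjusted p under 0.05 it was 4 as deposited and 2 after scaling, beside 1287 and 875 of 11144 genes.

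**Figure D3:**
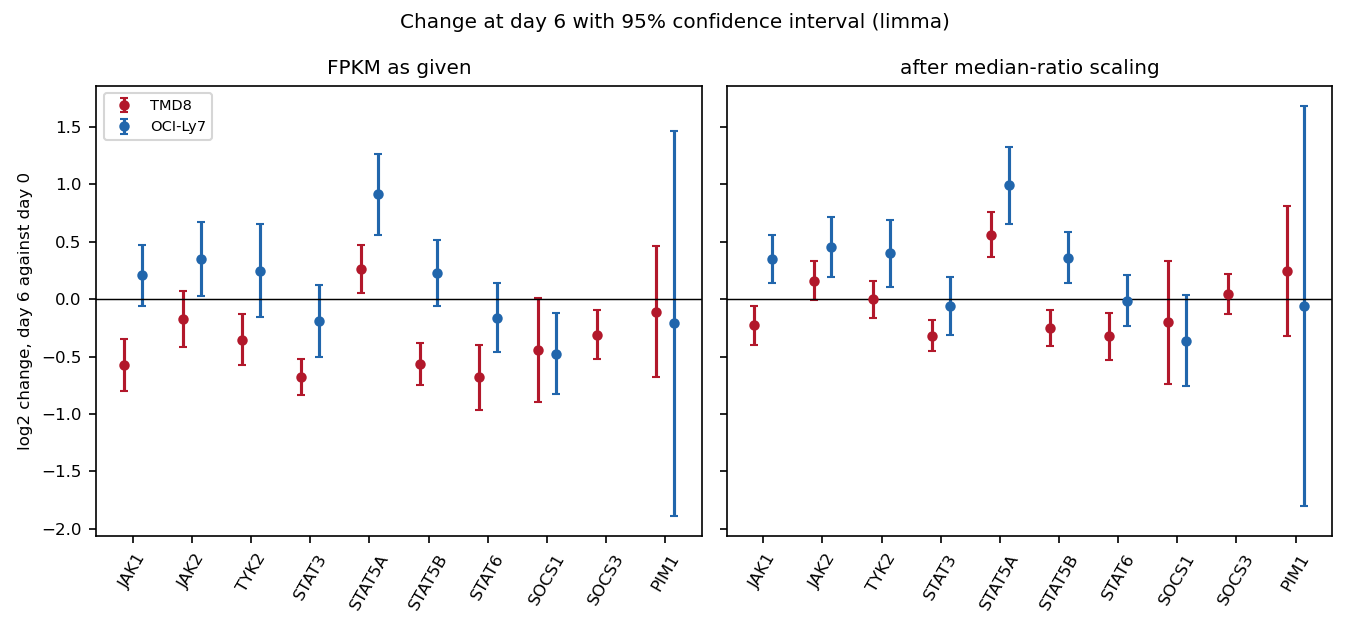
Change from day 0 to day 6 of each member on log2(FPKM + 1) with its 95% interval from limma, in TMD8 (red) and OCI-Ly7 (blue), on FPKM as deposited and after median-ratio scaling, with SOCS3 shown for TMD8 alone. STAT5A lies above 0 in both lines, STAT3, STAT5B and STAT6 lie below 0 in TMD8 on both scales, and the PIM1 interval in OCI-Ly7 is the widest.

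Of 7 other genes of these families and their partners, 6 were tested, and in TMD8 on day 6, 4 fell as deposited and 0 rose, beside 51.7% of all genes lower and 3.89% higher. After scaling 2 fell and 1 rose, beside 13.5% of all genes lower and 15.4% higher. STAT2, a mediator of interferon signalling, went from 13.3 and 12.9 FPKM on day 0 to 6.78 and 8.02 on day 6, a change of -0.75 (adjusted p = 0.00288), and -0.42 after scaling (adjusted p = 0.0114). PIM3 went from 29.6 and 27.4 FPKM to 18.1 and 15.7 (-0.72, adjusted p = 0.00301, and -0.37 after scaling, adjusted p = 0.0478). PIM2, the most abundant PIM kinase in these cells, went from 239 and 229 FPKM to 158 and 150, and passed as deposited (-0.60) and not after scaling (-0.24). In OCI-Ly7 0 of 6 passed on either scale, beside 11.4% and 14.8% of all genes. At an unadjusted p under 0.05 it was 1 as deposited and 2 after scaling, beside 3766 and 4010 of 11016 genes in that line. There PIM2 stood at 218 and 227 FPKM on day 0 and 239 and 211 on day 6, and PIM3 at 16.5 and 12.3 and then 22.4 and 17.9. JAK3 stayed between 1.15 and 2.32 FPKM in the 12 libraries, STAT4 was listed at 0 in all of them, and CISH was at 0.30 to 0.54 FPKM in TMD8 and at 0 in OCI-Ly7.

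Of 14 listed cytokines, 3 were tested in TMD8 and 1 in OCI-Ly7, too few to set beside the shares of all genes. IL6, which signals to STAT3, stood in TMD8 at 5.27 and 3.92 FPKM on day 0, 3.37 and 2.69 on day 3 and 10.1 and 11.5 on day 6. It rose by 1.08 on day 6 (adjusted p = 0.00352), and by 1.39 after scaling (adjusted p = 0.00445), and like STAT5A it was lowest on day 3. IL10 stood in TMD8 at 46.6 and 45.9, then 35.9 and 33.5, then 44.6 and 50.2 FPKM, a day 6 change of 0.03 as deposited (adjusted p = 0.740) and 0.39 after scaling (adjusted p = 0.0102). EBI3, a subunit of IL-27 and IL-35, moved in opposite directions as deposited: in TMD8 it went from 75.0 and 70.1 FPKM to 49.2 and 45.4 (-0.61, adjusted p = 0.00290, but -0.25, adjusted p = 0.0955, after scaling), and in OCI-Ly7 from 7.52 and 8.64 to 19.9 and 15.5 (1.04, adjusted p = 0.0345, and 1.17 after scaling). The difference between the lines was 1.64, and 1.46 after scaling, and passed in limma on either scale.

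Of 21 listed receptor genes, 15 were tested in TMD8, where 1 rose and 10 fell on day 6 as deposited and 1 rose and 2 fell after scaling. Of all genes 3.89% rose and 51.7% fell as deposited and 15.4% rose and 13.5% fell after scaling, so the receptors' share of falls after scaling is near that of all genes. IL2RB, the beta chain of the IL-2 and IL-15 receptors that signal to STAT5, went from 6.54 and 5.88 FPKM to 2.28 and 2.25 (-1.14, adjusted p = 0.00156). IL6R went from 3.02 and 2.46 FPKM to 1.27 and 1.56 (-0.63, adjusted p = 0.0104). IL2RG, the common gamma chain, went from 14.8 and 14.9 FPKM to 18.1 and 17.7 (0.26, adjusted p = 0.0310). All 3 also passed after scaling (-0.85, -0.39 and 0.60). In OCI-Ly7 1 of 13 rose and 0 fell as deposited and 3 rose after scaling, beside 1.98% and 6.71% of all genes higher. The gene that rose on both scales was IL10RA, the signalling chain of the IL-10 receptor, at 22.8 and 23.5 FPKM and then 31.3 and 35.8 (0.52, adjusted p = 0.0431, and 0.66 after scaling).

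Of 17 further inhibitors (CISH, other SOCS genes, PIAS genes and phosphatases), 15 were tested in TMD8, where 0 rose and 9 fell on day 6 as deposited (51.7% of all genes fell), and 1 rose and 1 fell after scaling (15.4% and 13.5% of all genes). The gene that fell on both scales was PTPRC (CD45, a phosphatase that acts on Janus kinases), from 47.0 and 46.8 FPKM to 25.6 and 27.4 (-0.80, adjusted p = 0.00201, and -0.45 after scaling, adjusted p = 0.0115). In OCI-Ly7 0 of 14 passed in limma on either scale, beside 11.4% and 14.8% of all genes. At an unadjusted p under 0.05 it was 5 as deposited and 2 after scaling, beside 3766 and 4010 of 11016 genes.

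Of 23 known STAT targets, 18 were tested in TMD8, where 2 rose and 9 fell on day 6 (3.89% and 51.7% of all genes), and 6 rose and 2 fell after scaling (15.4% and 13.5% of all genes). CCL22, a chemokine known as a STAT6 target, went from 2.07 and 1.89 FPKM to 6.06 and 8.70 in TMD8 (1.47, adjusted p = 0.00219) and from 0.73 and 0.60 to 1.82 and 1.55 in OCI-Ly7 (0.69, adjusted p = 0.0412), and after scaling by 1.74 and 0.76, past the threshold in each. In OCI-Ly7 CCL22 was below 1 FPKM on day 0 and reached the filter through its later libraries, so its call there supports nothing further. CD274 (PD-L1) went from 7.47 and 7.25 FPKM to 10.6 and 8.74 in TMD8 (0.35, adjusted p = 0.0312, and 0.67 after scaling, adjusted p = 0.0170). MYC fell in both lines on both scales: from 88.8 and 82.8 FPKM to 41.3 and 53.8 in TMD8 (-0.85, adjusted p = 0.00383, and -0.49 after scaling) and from 117 and 115 to 72.1 and 69.8 in OCI-Ly7 (-0.70, adjusted p = 0.0345, and -0.55 after scaling). IRF4, which marks the activated subtype, went from 461 and 423 FPKM to 244 and 301 in TMD8 (-0.70, adjusted p = 0.00426, and -0.34 after scaling, adjusted p = 0.0315). In OCI-Ly7 1 of 19 rose and 2 fell as deposited, beside 11.4% of all genes in either direction, the latter MYC and BIRC5 (survivin, 51.2 and 53.7 FPKM, then 38.6 and 30.7).

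Of 7 known PIM substrates, all tested, 0 rose and 4 fell in TMD8 on day 6 as deposited (51.7% of all genes fell), and 1 rose and 1 fell after scaling (15.4% and 13.5% of all genes). CDC25C, a phosphatase of mitotic entry, went from 6.27 and 6.50 FPKM to 3.33 and 2.54 (-0.92, adjusted p = 0.00308, and -0.62 after scaling, adjusted p = 0.0290). In OCI-Ly7 1 of 7 passed as deposited, beside 11.4% of all genes: AKT1S1 (PRAS40, an mTORC1 inhibitor) stood at 30.2 and 22.4 FPKM on day 0, 39.3 and 34.6 on day 3 and 79.3 and 77.4 on day 6 (1.55, adjusted p = 0.0345, and 1.70 after scaling). In TMD8 AKT1S1 stood at 32.5 and 27.2 FPKM on day 0 and 27.6 and 32.1 on day 6, and the difference between the lines was 1.55, and 1.39 after scaling, past the threshold in limma on either scale.

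The median day 6 change of the tested genes of each list, as deposited, can be set beside the -0.31 of all genes in TMD8 and the -0.13 in OCI-Ly7. In TMD8 it was -0.57 for the other kinases and STATs, 0.03 for the 3 cytokines, -0.30 for the receptors, -0.41 for the inhibitors, -0.35 for the STAT targets and -0.20 for the PIM substrates. In OCI-Ly7 it was 0.02 for the other kinases and STATs, 0.09 for the receptors, -0.15 for the inhibitors, -0.07 for the STAT targets and -0.11 for the PIM substrates.

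**Figure D4:**
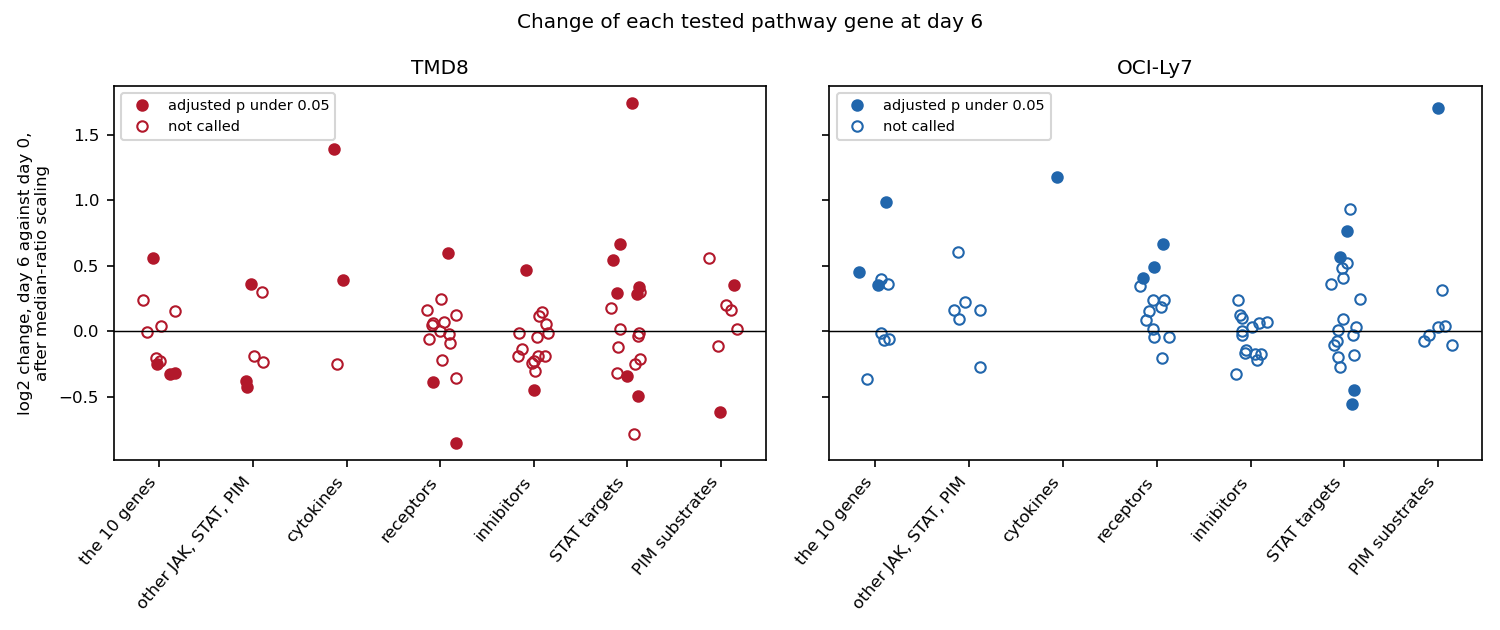
Change from day 0 to day 6 on log2(FPKM + 1) after median-ratio scaling, 1 point per tested gene of each pathway list, in TMD8 (red) and OCI-Ly7 (blue), with filled points for an adjusted p under 0.05 in limma and open points for the others. The points above 1 are CCL22 (1.74) and IL6 (1.39) in TMD8 and AKT1S1 (1.70) and EBI3 (1.17) in OCI-Ly7.

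The members' courses were also compared with those of 9687 other genes tested in both lines, as Pearson's r of scaled log2(FPKM + 1) centred within each line, over 12 libraries that share days and depth. This is a description of likeness across genes and carries no test. Nearest to STAT5A were ARMCX2 (r = 0.97), UQCC2 (0.96) and NUDT1 (0.95). Nearest to STAT5B were IL21R, FAM127A and USP4 (0.96, 0.96 and 0.95). JAK1 was nearest to ZNF251 (0.98), ATG2B (0.98) and SH3PXD2A (0.97), and TYK2 to ANKRD13D and LMF2 (both 0.97) and MAPK8IP3 (0.96). STAT3 was nearest to SLC18B1, TRAPPC9 and ACTR1B (all 0.92), STAT6 to RTTN (0.96), IPO9 (0.95) and SRGAP2 (0.93), and JAK2 to ISL2 (0.93), AKT1S1 (0.92) and WSB1 (0.91). PIM1 was nearest to PPP6C (0.95), FAM107B and EMC2 (both 0.90). Within TMD8 alone these were 0.66, 0.60 and 0.84, and within OCI-Ly7 0.98, 0.94 and 0.92. In OCI-Ly7 PIM1 had 1 library far below the others, day 6 replicate 2 (16.3 FPKM). For SOCS1 no gene reached 0.9. Between members the r was highest for JAK1 with STAT5B (0.87), STAT3 with STAT6 (0.80) and JAK2 with STAT5A (0.78).

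By annotation JAK1 overlaps RAVER2, JAK2 overlaps INSL6, STAT6 overlaps NAB2 and LRP1, and SOCS1 overlaps RMI2, each on the opposite strand and each with its own row. The labels do not say whether counting used strand, so reads in the shared stretches cannot be told apart.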

How the data were processed

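RNA was measured in 12 libraries of TMD8 and OCI-Ly7. Per the labels, the kits were RNeasy Plus mini for RNA and Illumina TruSeq RNA for the libraries. HISAT, StringTie and hg19 are named in the submitters' processing notes, with no versions. The deposited values are FPKM per gene symbol, computed by the authors, in 1 table per line; their depth was not given, and 25.3% of rows in TMD8 and 23.6% in OCI-Ly7 carry more than 6 decimals, STAT3, STAT5A and STAT6 among them, for a reason not given.

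Here log2(FPKM + 1) was computed, a scale that understates changes of low genes, and limma (version 3.58.1, R 4.3.3) was fitted per line to the genes averaging at least 1 FPKM (10456 in TMD8, 11016 in OCI-Ly7), with its trend option. The spread was estimated jointly from the 3 days, leaving 3 residual degrees of freedom. Differences between lines came from a fit over 12 libraries (11144 genes, 6 residual degrees of freedom). Benjamini-Hochberg adjusted p-values, over all genes of a fit, were called under 0.05 and measure only the spread between libraries, which may be technical. Intervals are 95%. Promoters and motifs were read from RefSeq (GRCh38.p14), and gene overlaps from a GRCh38 annotation, of which no coordinates are printed.

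The members, the 13 lists (145 genes) and the tests were chosen with earlier results of these data known. Named from the lists were JAK3, STAT2, STAT4, PIM2, PIM3 and CISH and, per list and line, up to 4 genes with the largest day 6 change past the threshold on both scales; IL10, IL21R, AKT1S1 in TMD8, EBI3 in TMD8, RNA45S5 and the cell type markers were named after their values were seen; some genes that the rule names are not reported here. The alternatives were median-ratio scaling, an equal sum per library, dropping the trend, dropping the filter or raising it to 5 FPKM, a pseudocount of 0.1, a replicate block, fits of only the 2 days compared, and omission of single libraries, after which a lone library is taken to vary as other groups do. Leaving out libraries after scaling was chosen after seeing the data. The fit was tested on simulated data with independent normal noise and no shift common to all genes. That test therefore says nothing of how the fit handles such a shift.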

Additional observations from a re-analysis of the deposited data

Results flagged for a closer look

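The change from day 0 to day 6 differed between OCI-Ly7 and TMD8 in limma, by the test of the difference itself, for 5 of the 10 genes: JAK1 (0.78), STAT5B (0.79), STAT5A (0.65), JAK2 (0.52) and STAT3 (0.49), each as OCI-Ly7 minus TMD8 on log2(FPKM + 1), beside 25.4% of all genes (19.5% in that direction). Over all genes tested the median of this difference was 0.18, and 0.04 after scaling. JAK1, STAT5B and STAT5A also passed after scaling (0.62, 0.65 and 0.44), while JAK2 and STAT3 did not (0.32 and 0.30). The day 6 change of the targeted gene PRMT5 differed between the lines as well, by -0.77, and by -0.94 after scaling, past the threshold on either scale. Whether this bears on the differences of the members was not tested.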

How the results depend on the processing

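Over 938 values of 61 single-gene results, 790 kept their direction and their side of the threshold, 104 no longer passed, 18 newly passed and 26 changed sign. The count of 6 members in TMD8 at day 3 was 0 after median-ratio scaling, with an equal sum per library and with the replicate block, and 0 to 7 when a library was left out. The count of 7 at day 6 was 4 after scaling and 4 to 6 with a library left out. The TMD8 count of 1 from day 3 to day 6 was 2 with an equal sum, 0 at a mean FPKM of at least 5, 0 with the replicate block and 0 to 1 with a library left out. The OCI-Ly7 count of 1 at day 6 was 3 after scaling, 0 with no filter, 0 at a mean of at least 5 and 0 to 1 with a library left out. The OCI-Ly7 count of 0 from day 3 to day 6 was 1 after scaling, 1 with an equal sum and 0 to 1 with a library left out. The count of 5 for the difference of the day 6 changes was 3 with the replicate block and 3 to 7 with a library left out. The count of 7 between the lines at day 0 was 6 to 7 with a library left out and 6 with an equal sum, at a mean of at least 5 and with the replicate block, where STAT5B had an adjusted p of 0.0849. A mean of at least 5 leaves STAT5A untested; the other causes were not tested.

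After scaling the sign turned in TMD8 at day 3 for JAK2 (0.0765), TYK2 (0.11, and 0.0137 with an equal sum) and PIM1 (0.0857), and at day 6 for JAK2 (0.16), SOCS3 (0.0443) and PIM1 (0.24). JAK1 in OCI-Ly7 at day 3 became 0.11 after scaling and 0.12 with an equal sum, and the SOCS1 difference of day 6 changes became 0.0474 with a pseudocount of 0.1. With a library left out the change in OCI-Ly7 at day 3 ranged from -0.0967 to 0.0760 for JAK1, -0.36 to 0.10 for TYK2, -0.0136 to 0.0416 for STAT5A and -0.11 to 0.11 for STAT5B. For PIM1 it ranged from -0.59 to 0.17 in TMD8 at day 3, -0.24 to 0.0175 in TMD8 at day 6, -1.33 to 0.91 in OCI-Ly7 at day 6 and -1.22 to 1.01 for the difference of the day 6 changes. The SOCS1 difference of day 6 changes ranged from -0.31 to 0.26 and the TYK2 difference between the lines at day 0 from -0.0135 to 0.0482.

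The replicate numbers did not pair the libraries: deviations of same-numbered libraries from their group means correlated across genes by -0.15 to 0.13 (Pearson's r), with 2 numbers only. With the replicate block the STAT5A change in TMD8 at day 6 had an adjusted p of 0.0835. The number of reads per library is not given in the sources used here, so no counting error can be given for low genes such as SOCS1 and STAT5A.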
